A study of Mus musculus with 6 samples.

Results

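Transcripts of 10 feedback regulators of the MAP kinase pathway were measured in sorted cortical nuclei: those of the phosphatase genes Dusp1, Dusp3, Dusp4, Dusp5, Dusp6 and Dusp14, and those of the Sprouty-family genes Spry2, Spry4, Spred1 and Spred2. These 10 genes were chosen by name from a count table of 24421 genes, and all 10 were found in it. RNA came from sorted nuclei of the medial prefrontal cortex (mPFC), a cortical area studied here in relation to lasting pain. All animals were Foxp2-Cre mice injected on both sides with an adeno-associated virus carrying KASH-GFP, a green fluorescent protein anchored in the nuclear envelope, and tissue was taken 4 weeks later. The 3 libraries of the treated group came from mice given CFA (complete Freund's adjuvant, an agent that produces lasting inflammatory pain), and the 3 control libraries from mice given saline. The labels call the nuclei Foxp2-positive neurons. The Cre line, and not a surface marker, defined which nuclei could carry the label. The age and sex of the mice and the time between CFA and collection are not given in the labels.

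MAP kinase cascades carry signals from growth factor receptors and synaptic activity to the nucleus, where the kinase ERK switches on early response genes. Some of the genes that ERK and CREB switch on encode brakes. Dual-specificity phosphatases (Dusp) remove phosphate from both the threonine and the tyrosine of activated MAP kinases, and Sprouty and Spred proteins dampen signalling between growth factor receptors and Raf. In cortical neurons several of these brakes are induced by neuronal activity, and their transcripts are often read as a trace of recent ERK signalling.

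Libraries held 9673038 to 11850741 counts and 15268 to 16075 detected genes. Slc17a7, the vesicular glutamate transporter of cortical excitatory neurons, was at 1929 to 2643 CPM (counts scaled to library size by TMM), and Foxp2 was at 24.0 to 43.6 CPM, so excitatory and Foxp2 transcripts were present in every library. Transcripts of other cells were present too. Summed over a fixed list each, 6 astrocyte markers came to 203 to 284 CPM under CFA and 178 to 186 CPM under saline, and 4 markers of oligodendrocyte precursors to 23.4 to 31.2 and 14.6 to 18.8 CPM. The 6 striatal projection neuron markers went the other way, at 199 to 370 and 298 to 794 CPM. Saline replicate 3 stood apart from the other saline libraries, with a chi-square of 48.6 and 45.9 per degree of freedom over genes against 20.6 between those 2, and it was the lowest library for 23.7% and the highest for 23.8% of tested genes. The labels do not say whether replicates came from separate animals, so each p-value refers to variation among libraries and may reflect technical variation. In such bulk samples fewer cells of a type and less RNA per cell cannot be told apart.

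All 10 genes passed the low-count filter, and 0 of them were called between CFA and saline libraries (edgeR quasi-likelihood test, p-values adjusted by Benjamini-Hochberg over the whole table). The share called over all 13560 tested genes was 0%. At an unadjusted p under 0.05 there was 1 member, Spry4, against 3.22% of all tested genes. The groups overlapped for all 10 members, where 7.5% of all tested genes did not overlap. By sign 6 members were higher and 4 lower in CFA, with a median log2 fold change of 0.14, beside a median of -0.0011 and 49.8% positive over all tested genes. Without saline replicate 3, 0 members were called and their median was 0.18. The log2 fold change was then -0.15 for Dusp1, 0.31 for Dusp3, 0.24 for Dusp4, -0.04 for Dusp6 and 0.36 for Spred2, and that of the other 5 is given where each is described.

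Activity and growth factor signals reach such genes through short elements in their promoters. Promoters of 8 of the 10 genes were taken from the RefSeq table used (build GRCm38.p6, the same assembly as mm10). That table had none for Dusp4, and the promoter of Spry4 was left out of the search. The promoters of Dusp1, Dusp5, Dusp6 and Spred2 are printed as examples that hold the letters of known response elements of activity and ERK signalling. Those of Dusp14 and Spred1 held such letters too and are not printed. The sequences of Dusp3 and Spry2 held none of the letters searched. Any link between the letters and the levels across libraries was not tested. Each covers the 250 bases before the RefSeq start site, 5′ to 3′ on the strand of the gene, with every match in capitals. The letters searched, on both strands, were the cyclic AMP response element (CRE, TGACGTCA), its core TGACG, the AP-1 site TGANTCA, the CArG box bound by serum response factor, and an ETS core CGGAAG. Every CRE also contains the CRE core.
Dusp1: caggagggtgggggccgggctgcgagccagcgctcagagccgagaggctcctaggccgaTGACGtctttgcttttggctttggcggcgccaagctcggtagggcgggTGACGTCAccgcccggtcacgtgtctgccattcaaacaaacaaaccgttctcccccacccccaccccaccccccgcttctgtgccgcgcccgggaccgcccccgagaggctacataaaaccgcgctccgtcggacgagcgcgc
Dusp5: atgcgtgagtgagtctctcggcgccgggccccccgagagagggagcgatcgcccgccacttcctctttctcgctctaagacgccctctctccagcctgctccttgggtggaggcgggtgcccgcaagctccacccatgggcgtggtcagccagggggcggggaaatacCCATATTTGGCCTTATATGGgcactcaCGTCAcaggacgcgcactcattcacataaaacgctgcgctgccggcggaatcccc
Dusp6: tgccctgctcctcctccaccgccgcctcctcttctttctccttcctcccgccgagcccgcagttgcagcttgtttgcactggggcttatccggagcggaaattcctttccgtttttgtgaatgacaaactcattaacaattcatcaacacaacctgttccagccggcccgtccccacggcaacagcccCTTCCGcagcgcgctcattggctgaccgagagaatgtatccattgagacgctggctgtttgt
Spred2: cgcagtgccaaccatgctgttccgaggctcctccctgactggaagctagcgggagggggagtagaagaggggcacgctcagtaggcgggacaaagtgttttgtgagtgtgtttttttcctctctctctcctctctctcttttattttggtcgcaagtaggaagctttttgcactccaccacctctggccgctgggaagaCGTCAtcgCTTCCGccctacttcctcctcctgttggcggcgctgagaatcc

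The Dusp1 sequence (chr17:26508473-26508722, minus strand) held a full CRE 143 to 136 bases before the start site and a further CRE core 191 to 187 bases before it. A full CRE was found in 1.55% of the 32851 promoters of the same length and the core in 17.8%. The Dusp5 sequence (chr19:53528895-53529144, plus strand) held a pair of adjoining CArG boxes, 82 to 73 and 72 to 63 bases before the start site, and a CRE core. CArG boxes were found in 1.47% of promoters. The RefSeq start site of Dusp5 lies 173 bases before the start of the gene model in the count table, while for the other 7 genes both coincide. The Dusp6 sequence (chr10:99262981-99263230, plus strand) held an ETS core 62 to 57 bases before the start site. The Spred2 sequence (chr11:19924192-19924441, plus strand) held a CRE core and an ETS core within 51 bases of the start site. Dusp14 and Spred1 held an ETS core as well, found in 13.6% of promoters, and the AP-1 letters were in 0 of the 8 member sequences and 6.75% of all. These matches describe letters and not occupied sites.

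Levels per exon length spanned a wide range. Dusp1, a nuclear phosphatase of ERK, JNK and p38 kinases, had the highest mean over the 6 libraries, 123 CPM per kb, above 95.9% of tested genes. Dusp14, a small atypical phosphatase, followed at 75.7 CPM per kb, then Dusp6 at 50.7 and Dusp3 at 30.7 CPM per kb. Dusp1 was above Dusp14 in 5 of 6 libraries, Dusp14 above Dusp6 in 6 of 6, and Dusp6 above Dusp3 in 6 of 6, though the ranges of each of these pairs overlapped across libraries. The range of Dusp3 lay wholly above that of Spred1, whose mean was 14.3 CPM per kb. Spry2, Dusp5 and Spred2 came next, at 10.4, 7.09 and 6.80 CPM per kb. The order of these neighbours changed between libraries, with Spry2 above Dusp5 in 5 of 6 and Dusp5 above Spred2 in 4 of 6. Spry4 and Dusp4 were far below the rest, at 1.36 and 1.16 CPM per kb, and the ranges of Spred2 and Spry4 did not overlap. The last 2 ranks are not separated, since Spry4 was above Dusp4 in 4 of 6 libraries and their ranges overlapped.

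**Figure D1:**
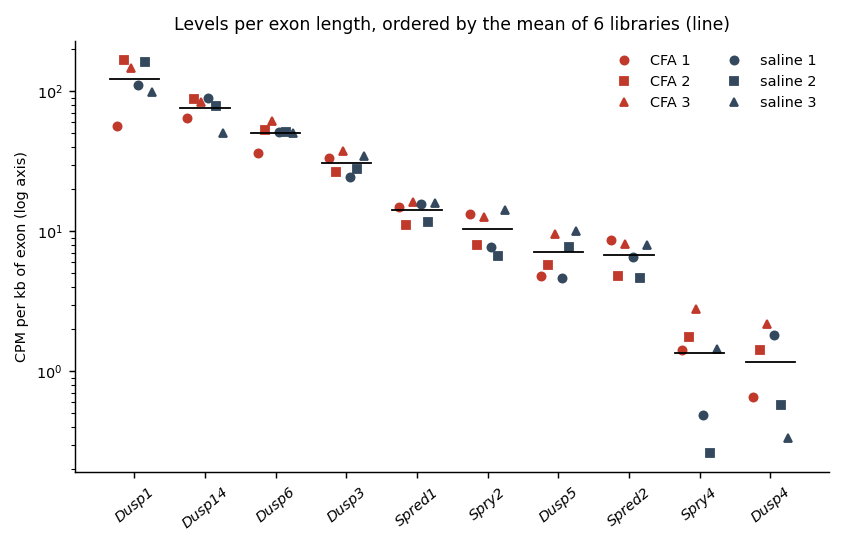
CPM per kb of exon on a log axis for each gene, with CFA libraries in red, saline libraries in dark blue and a line at the mean of the 6 libraries. Dusp1 stands highest at 123 CPM per kb, Spry4 and Dusp4 lie near 1 CPM per kb, and the step from Dusp3 to Spred1 has no overlap between libraries.

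Among the phosphatases, Dusp1 is the classic immediate early member, induced within minutes by activity and stress (chromosome 17, 26505591 to 26508472, mm10, 4 exons). Its level was 109, 323 and 284 CPM in CFA replicates 1, 2 and 3 and 216, 314 and 192 CPM in saline replicates 1, 2 and 3. The lowest and the highest library were both CFA libraries, 2.97-fold apart, and the saline values lay between them. The group means were 239 ± 114 and 241 ± 64.5 CPM (SD, n = 3). The log2 fold change was -0.01 ± 0.31 (SE), and its 95% interval of 0.625- to 1.57-fold leaves room for a moderate change in either direction. Without CFA replicate 1 it was 0.33 ± 0.24, and without saline replicate 2 it was 0.23 ± 0.35, so its sign rests on single libraries.

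Dusp6, a cytoplasmic phosphatase specific for ERK and a standard readout of ERK output (chromosome 10, 99263231 to 99267489, 3 exons), was at 101, 148 and 172 CPM under CFA and 144, 144 and 140 CPM under saline. The saline libraries lay close together, while CFA libraries lay on either side of them. The coefficient of variation was 25.6% in CFA and 1.57% in saline libraries, against medians of 16.7% and 22.3% over all tested genes, and the difference in spread was not tested. The log2 fold change was -0.03 ± 0.20 with a 95% interval of 0.733- to 1.32-fold. Without CFA replicate 1 it was 0.16.

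Dusp5 and Dusp4 are inducible nuclear phosphatases, Dusp5 specific for ERK. Dusp5 (chromosome 19, 53529318 to 53541322, 4 exons) was at 5.57, 6.61 and 11.0 CPM under CFA and 5.36, 8.99 and 11.5 CPM under saline, so the groups covered the same range. Its log2 fold change was -0.16 ± 0.41. Leaving out CFA replicate 1 turned it to 0.03, and leaving out saline replicate 3 to 0.11. Dusp4 (chromosome 8, 34807610 to 34819894, 4 exons) rested on few reads, with 19, 39 and 55 counts in CFA and 49, 15 and 8 counts in saline libraries. These were 1.58, 3.43 and 5.28 CPM against 4.38, 1.39 and 0.810 CPM. Saline replicate 1 lay among the CFA libraries and the other saline libraries below all of them. The log2 fold change of 0.63 ± 0.74 was 1.62 ± 0.82 without saline replicate 1 and 0.19 ± 0.93 without CFA replicate 3, and its 95% interval ran from 0.521- to 4.62-fold.

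Dusp3 and Dusp14 are small atypical phosphatases without the MAP kinase docking domain of the others. Dusp3, also known as VHR (chromosome 11, 101971144 to 101984791, 3 exons), was at 140, 111 and 157 CPM under CFA and 102, 118 and 146 CPM under saline. Its log2 fold change was 0.16 ± 0.19 with a 95% interval of 0.838- to 1.49-fold. Dusp14 (chromosome 11, 84048045 to 84068357, 3 exons) was at 93.3, 128 and 120 CPM under CFA and 128, 113 and 73.0 CPM under saline, and its log2 fold change was 0.12 ± 0.22. Saline replicate 3 was the lowest of all 6, and without it the log2 fold change was -0.08. For both genes the groups overlapped.

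**Figure D2:**
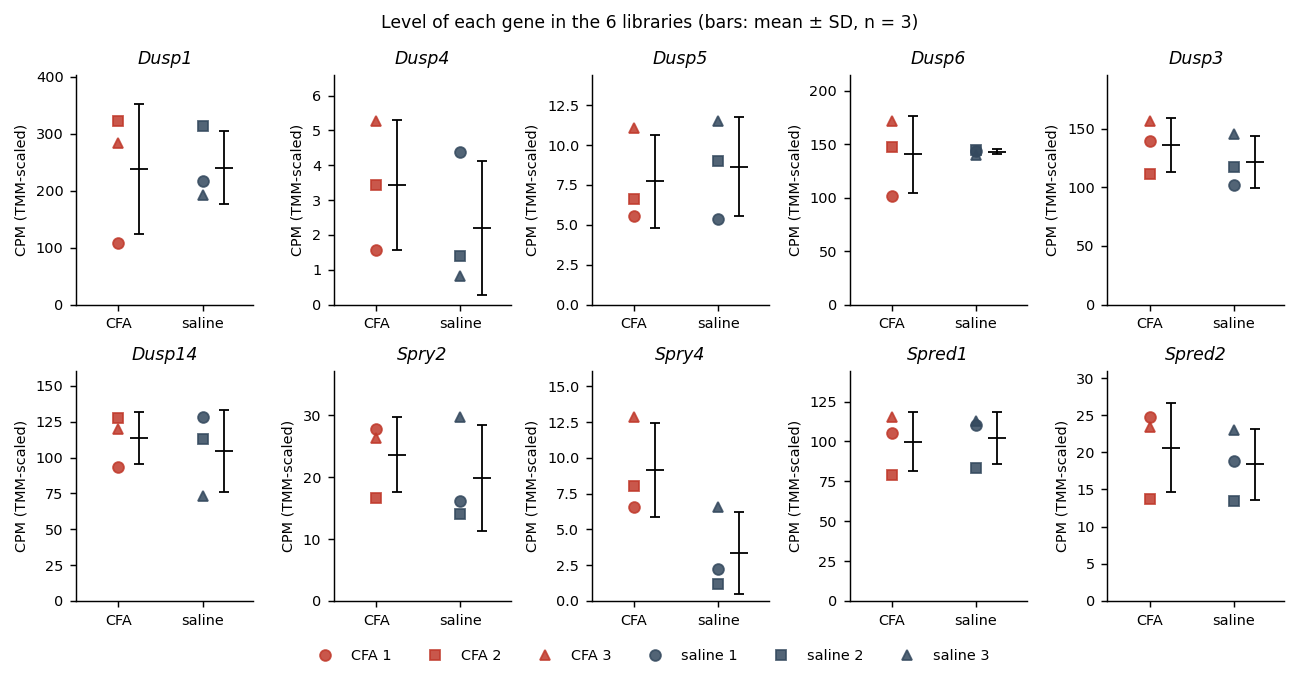
Level of each of the 10 genes in CPM, with 1 point per library (CFA red, saline dark blue, the marker shape giving the replicate) and bars for the mean ± SD of 3 libraries. Dusp1 has its lowest and highest points (109 and 323 CPM) both in CFA, the 3 saline points of Dusp6 lie between 140 and 144 CPM, and Spry4 is the gene whose groups come nearest to separating.

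Among the Sprouty genes, Spry4 showed the largest difference between groups of the 10 members. Sprouty proteins are induced by fibroblast growth factor signalling through ERK and dampen signalling downstream of the same receptors. Spry4 (chromosome 18, 38586265 to 38601268, 2 exons) had 79, 91 and 134 counts in CFA and 25, 13 and 65 counts in saline libraries. Scaled, these were 6.56, 8.01 and 12.9 CPM against 2.23, 1.20 and 6.58 CPM. CFA replicate 1 and saline replicate 3 were level, and the other saline libraries lay below every CFA library. The log2 fold change was 1.46 ± 0.57, a 95% interval of 1.19- to 6.35-fold before any correction, with an unadjusted p of 0.0216 that became 1.0 after adjustment (edgeR quasi-likelihood). Leaving out each library in turn gave 1.06 to 2.40, and without saline replicate 3 the log2 fold change was 2.40 ± 0.53 with an adjusted edgeR p of 0.282.

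Markers of other cells were in part higher in CFA libraries, like Spry4, and in part lower or mixed. All 5 tested markers of striatal projection neurons had negative log2 fold changes. Of 5 oligodendrocyte markers 2 were positive and 3 negative. Their summed levels were 387, 315 and 232 CPM under CFA and 334, 287 and 285 CPM under saline. The 1 tested vascular marker was negative. Of 3 tested markers of oligodendrocyte precursors 2 were higher in CFA and 1 was lower, with summed levels of 28.6, 31.2 and 23.4 CPM under CFA and 18.8, 14.6 and 17.1 CPM under saline. Pdgfra, which defines these cells, had 5, 19 and 19 counts in CFA and 4, 0 and 3 counts in saline libraries. It did not pass the low-count filter and is not among the 3 tested. Gpr17, a receptor of their maturing stage, had 67, 39 and 31 counts in CFA and 11, 6 and 0 counts in saline libraries. Olig1, a transcription factor of the same lineage, was at 20.5, 23.9 and 17.7 CPM under CFA and 13.7, 10.3 and 13.1 CPM under saline. Cspg4, which encodes the NG2 proteoglycan of these cells, went the other way without overlap, with 25, 25 and 10 counts in CFA and 42, 41 and 37 counts in saline libraries. Astrocyte markers had 3 of 6 members higher, with summed levels of 248, 284 and 203 CPM and 186, 184 and 178 CPM. Of 7 microglia markers 6 were higher, with summed levels of 50.4, 62.0 and 24.8 CPM under CFA and 39.9, 20.8 and 27.5 CPM under saline. All 6 markers of inhibitory neurons had positive log2 fold changes, but their summed levels overlapped, at 177, 172 and 108 CPM under CFA and 168, 131 and 107 CPM under saline. Fgfr3, a fibroblast growth factor receptor of astrocytes, was at 6.65, 7.31 and 3.55 CPM under CFA and 3.49, 1.58 and 1.21 CPM under saline. The library with the most Spry4 was CFA replicate 3. Among the CFA libraries it had the lowest summed level of the oligodendrocyte precursor, astrocyte, microglia and inhibitory neuron lists. Pdgfra was not lowest there, with 19 counts as in CFA replicate 2. The part of these cells in the Spry4 values was not tested.

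Spry2 (chromosome 14, 105891947 to 105896819, 2 exons), the Sprouty member with the most reads here, was at 27.8, 16.6 and 26.4 CPM under CFA and 16.1, 14.0 and 29.8 CPM under saline, with 151 to 334 counts per library. The lowest and the highest value were both in saline libraries. The log2 fold change was 0.24 ± 0.31 with a 95% interval of 0.748- to 1.88-fold. Leaving out each library in turn gave 0.05 (without saline replicate 2) to 0.65 (without saline replicate 3). The intervals of Spry2 and Spry4 overlapped, and the difference between the 2 genes was not tested.

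Spred1 and Spred2 encode membrane-bound relatives of Sprouty that recruit neurofibromin, an off switch of Ras. Spred1 (chromosome 2, 117121071 to 117182277, 7 exons) was at 105, 79.1 and 115 CPM under CFA and 110, 83.2 and 113 CPM under saline. The library numbered 2 was the lowest of each group. Its log2 fold change was -0.03 ± 0.20, a 95% interval of 0.732- to 1.31-fold. Spred2 (chromosome 11, 19924442 to 20022597, 6 exons) was at 24.8, 13.7 and 23.4 CPM under CFA and 18.8, 13.4 and 23.0 CPM under saline, again with replicate 2 lowest in each group. Its log2 fold change was 0.17 ± 0.29. For Spred1 the sign turned without CFA replicate 2, saline replicate 1 or saline replicate 3 (0.11, 0.03 and 0.05), and for Spred2 without saline replicate 2 (-0.01).

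**Figure D3:**
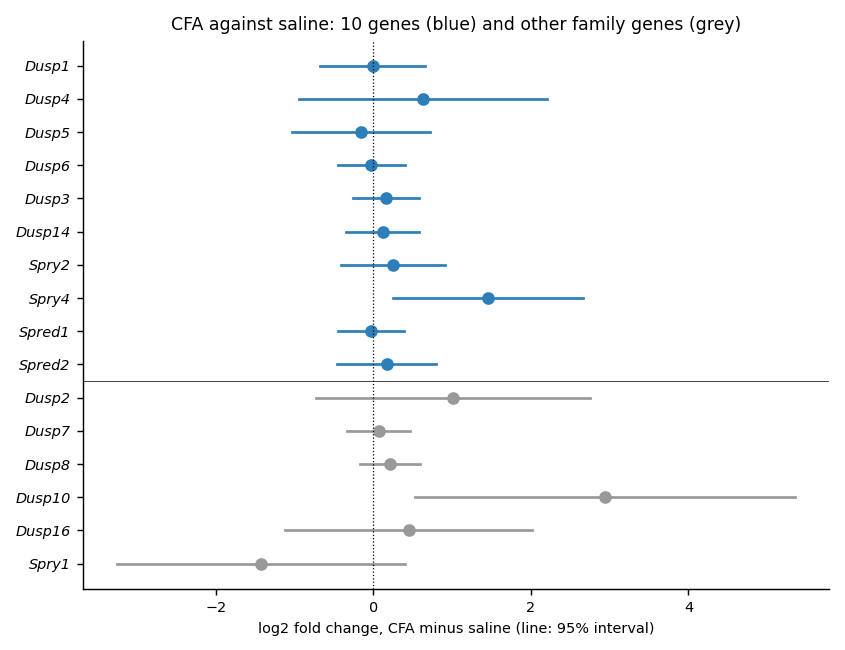
Log2 fold change of CFA over saline libraries with its 95% interval (unadjusted). The 10 genes are in blue, and Dusp2, Dusp7, Dusp8, Dusp10, Dusp16 and Spry1 are in grey. All intervals of the 10 genes include 0 except that of Spry4 at 1.46, and among the grey genes the interval of Dusp10 lies above 0.

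The members did not share 1 profile across libraries. Dusp1 was highest in CFA replicate 2 and saline replicate 2, and Spred1 and Spred2 were lowest in exactly these libraries. Over all tested genes this pair of libraries was the highest pair for 6.52% and the lowest pair for 6.63%. The 2 libraries carry the same replicate number, but the labels do not say that the number stands for anything shared. They held 11250924 and 11117681 counts, within the range of the other libraries, and the part of depth or of any other feature of these libraries was not tested.

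The profile of Dusp1 resembled that of a fixed list of 18 activity-induced genes. Their summed level was 2002, 4239 and 3245 CPM under CFA and 2688, 3645 and 3156 CPM under saline, so CFA replicate 1 was lowest and CFA replicate 2 highest, as for Dusp1. Of the 18 genes 10 were lowest in CFA replicate 1, against 13.2% of all tested genes, and 7 had replicate 2 of both groups as their highest pair. Fos, a subunit of the AP-1 transcription factor, was at 84.8, 219 and 169 CPM under CFA and 133, 220 and 148 CPM under saline. Dusp6 was also lowest in CFA replicate 1, but in the other 5 libraries it stayed between 140 and 172 CPM. Of the 18 genes 0 were called and 9 were positive, with a median log2 fold change of -0.0050. An alternative chosen after the data were seen took the level of this list as a covariate. The log2 fold change of Dusp1 was then -0.03 with an SE of 0.22 in place of 0.31. Since Dusp1 resembled the list, its smaller SE adds no support for the resemblance. With the same covariate the log2 fold change of Spry4 was 1.49 ± 0.59.

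**Figure D4:**
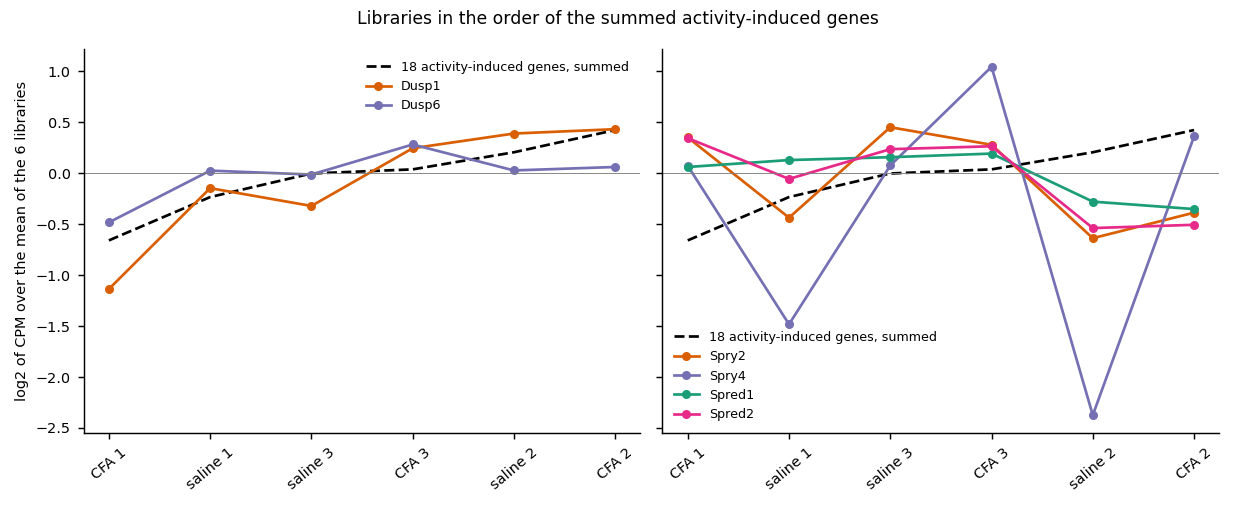
Log2 of each gene's CPM over its mean of the 6 libraries, with libraries ordered by the summed level of 18 activity-induced genes (dashed line). Dusp1 has its ends in the same libraries as the dashed line, lowest in CFA replicate 1 and highest in CFA replicate 2, whereas Spred1 and Spred2 are lowest in replicate 2 of both groups and Spry4 follows neither.

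Other genes of these families were measured alongside. Of 6 further MAP kinase phosphatases 5 were tested, 0 were called, and all 5 had positive log2 fold changes with a median of 0.45. The median was 0.09 without saline replicate 1. Under the stricter filter of 5 CPM in 3 libraries it was 0.14, but that filter kept only Dusp7 and Dusp8 and removed Dusp2, Dusp10 and Dusp16. The 2 abundant ones showed small differences, Dusp8, a phosphatase of JNK and p38, at 143 ± 13.4 CPM under CFA and 123 ± 18.4 CPM under saline, and Dusp7, a cytoplasmic ERK phosphatase, at 69.9 ± 7.18 and 66.8 ± 8.70 CPM. Dusp10, which acts on JNK and p38, had 35, 19 and 22 counts in CFA and 0, 9 and 0 counts in saline libraries. The CFA libraries were all above the saline libraries, but at 2.23 ± 0.626 against 0.278 ± 0.481 CPM, and a count of 0 allows up to 0.268 CPM in saline replicate 1 and 0.304 CPM in saline replicate 3. The fitted log2 fold change was 2.94 ± 1.1, with an unadjusted p of 0.0203 that became 1.0 after adjustment (edgeR quasi-likelihood), and its size depends on how counts of 0 are handled, since saline replicate 2 alone held the reads of its group. It was 4.15 with limma-voom and 7.62 without saline replicate 2, when every saline library left was at 0 and the value is no bound. Dusp2, an inducible nuclear phosphatase, and Dusp16 had log2 fold changes of 1.01 ± 0.81 and 0.45 ± 0.73. Dusp9 did not pass the low-count filter, at 2 to 25 counts per library.

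Spry1, another Sprouty gene, went the other way from Spry4. It had 1, 19 and 24 counts in CFA and 40, 56 and 21 counts in saline libraries, which gave a log2 fold change of -1.43 ± 0.85 with an unadjusted p of 0.116 that became 1.0 after adjustment (edgeR quasi-likelihood). Without CFA replicate 1, which held 1 count, it was -0.87, and with limma-voom it was -2.21. CFA replicate 3 and saline replicate 3 were nearly level in counts. Spred3 was at 12.9 ± 2.03 CPM under CFA and 12.9 ± 8.34 CPM under saline, and Spry3 had a count of 0 in every library. Of 13 atypical Dusp genes and relatives 10 were tested and 0 called, 3 positive and 7 negative. Dusp26, the most abundant per length, was at 108 ± 4.71 and 93.0 ± 17.4 CPM, and Dusp22 and Dusp18, those with the smallest p, had log2 fold changes of 0.32 and -0.36.

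The pathway on which these brakes act was well represented, and 0 of its tested genes were called. Among 21 genes from Ras to ERK, 11 were positive and 10 negative, with a median log2 fold change of 0.02. Map2k1, the kinase MEK that phosphorylates ERK, was the most abundant per length, at 335 ± 32.1 CPM under CFA and 351 ± 94.6 CPM under saline. Sos1, which loads Ras with GTP downstream of receptors, was at 26.8, 33.3 and 30.9 CPM under CFA and 33.6, 45.0 and 55.3 CPM under saline. Its groups did not overlap, by a small margin, and its log2 fold change was -0.56 ± 0.23 with an unadjusted p of 0.0276 (1.0 after adjustment, edgeR quasi-likelihood). Frs2, an adaptor of fibroblast growth factor receptors, had a log2 fold change of 0.41 ± 0.33, which was 0.07 without saline replicate 1.

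In the JNK, p38 and ERK5 branches 13 genes were tested, 9 positive and 4 negative, with a median of 0.09. The JNK activator Map2k4 was the most abundant per length, at 276 ± 18.8 and 275 ± 27.2 CPM. The p38 kinases Mapk13 and Mapk12 had the smallest p, with log2 fold changes of -1.37 ± 0.62 and 0.76 ± 0.41, both at under 11 CPM in every library. Among receptor tyrosine kinases 9 of 13 were tested, 2 positive and 7 negative, with a median of -0.15. Ntrk2, the BDNF receptor, was the most abundant per length, at 386 ± 50.5 and 389 ± 54.4 CPM. Fgfr3 and Fgfr2 had log2 fold changes of 1.47 ± 0.58 and -1.17 ± 0.63, in opposite directions and at low levels.

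Further brakes and ERK substrates showed no calls either. Of 11 other feedback genes 10 were tested, 5 positive and 5 negative, with a median of -0.06. Ptpn5, the striatal-enriched tyrosine phosphatase that acts on ERK in neurons, was the most abundant per length of these, at 296 ± 9.78 CPM under CFA and 279 ± 45.0 CPM under saline. Nf1, which switches Ras off, had a log2 fold change of -0.35 ± 0.30, which was -0.02 without saline replicate 3. Of 14 ERK substrates and ETS factors 13 were tested, 7 positive and 6 negative, with a median of 0.00085. Etv5, an ETS factor induced with the Sprouty genes by fibroblast growth factors, was at 338, 202 and 328 CPM under CFA and 281, 287 and 222 CPM under saline, a range within which the groups overlapped. The kinases Rps6ka3 and Rps6ka5 had log2 fold changes of -0.42 ± 0.29 and -0.40 ± 0.31. In the activity-induced list Trib1 and Ier5 had the smallest p, with log2 fold changes of 0.36 ± 0.30 and 0.23 ± 0.21, and Arc the highest level per length, at 425, 1239 and 832 CPM under CFA and 640, 752 and 802 CPM under saline.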

How the data were processed

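RNA of sorted mPFC nuclei was measured in 6 libraries, grouped by their titles. The authors deposited raw counts per gene with exon intervals and lengths, per the file headers. The submitters' processing notes name Trim Galore, HISAT2 2.2.1, SAMtools 1.13, featureCounts 2.0.1, edgeR 3.32.1 and build mm10. Per the labels' protocols, libraries were made with Smart-seq V4 and Nextera XT kits, which do not mark strand. No member shared exon bases with another gene model of the table. Settings for strand and multi-mapping reads were not stated there.

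The deposited counts were tested with edgeR 4.0.16 (R 4.3.3; quasi-likelihood, TMM, filterByExpr, treatment as the only term), and p-values were adjusted by Benjamini-Hochberg over 13560 tested genes at 0.05. SEs come from the F statistic, and 95% intervals from its degrees of freedom, unadjusted. CPM values are TMM-scaled, and the activity covariate is a mean log2 CPM (prior count of 2). CPM per kb divides by exon length. Floors of 3 counts cover counting error only. Libraries were compared in pairs for copies, and the closest pair still had a chi-square of 17.2 per degree of freedom, beyond sampling noise.

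Named genes were the members, the tested remaining MAP kinase phosphatases and Sprouty genes, and from each pathway list the 2 genes with the smallest p and the most abundant per kb; a gene that this rule named is not reported here. Fos, Pdgfra, Gpr17 and Cspg4 were chosen after their values were seen. Members and lists were chosen with earlier results of these data known. Alternatives were RLE and library-size scaling, 2 other filters, DESeq2 1.42.0, limma-voom 3.58.1, a replicate block, leaving out each library, and the activity-level covariate.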

Additional observations from a re-analysis of the deposited data

How the results depend on the processing

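Under every alternative run, 0 members were called, and the members' median log2 fold change stayed between 0.06 and 0.20 (0.14 with all libraries). The count of called genes over the whole table was 9 without a low-count filter, 5 with DESeq2 and 6 with the replicate block, and 0 to 5 when 1 library was left out, 5 of them without saline replicate 3, against 0 in the edgeR quasi-likelihood test (437 at an unadjusted p under 0.05). With limma-voom it was 0 (469). Deviations of same-numbered libraries from their group means had correlations of -0.079, 0.025 and -0.069 across all tested genes. Such correlations cannot tell whether some genes share a replicate effect, and the labels do not say what the number stands for. Under the block Spry4 was at 1.70 ± 0.53.

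Among genes given with a log2 fold change, signs turned only when 1 library was left out, for Dusp1 (-0.30 to 0.33), Dusp5 (-0.50 to 0.11), Dusp6 (-0.20 to 0.16), Dusp14 (-0.085 to 0.29), Spred1 (-0.16 to 0.11), Spred2 (-0.013 to 0.39), Dusp7 (-0.0357 to 0.14) and Dusp16 (-0.19 to 1.10). Dusp3, Dusp4, Spry2 and Spry4 kept their sign in all alternatives that could be fitted, and Dusp4 was removed by the stricter filter (5 CPM or more in 3 libraries or more). Leaving out 1 library moved the log2 fold change by over 1.5 times, or turned its sign, for all 10 members and for 14 of 19 other genes given with one. A small log2 fold change, as those of Dusp1, Dusp6 and Spred1, exceeds this ratio easily. Many of the other genes were named for a small p, so the counts of members and other genes are not comparable. Depth limits Dusp2, Dusp4, Dusp10, Dusp16 and Spry1, none of which had over 57 counts in any library.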
